A study of Rattus norvegicus with 6 samples.

Results

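The genes examined here are those with which colon epithelial cells take up and burn short-chain and longer fatty acids: 34 listed genes of fatty acid oxidation, ketogenesis and butyrate use, chosen by name and split by role into transport, beta oxidation, ketogenesis and regulators. Of the 34, 32 were found among the 17388 genes of the complete tables: 10 of 11 in transport, 15 of 16 in beta oxidation, 2 of 2 in ketogenesis and 5 of 5 regulators. Cd36, a fatty acid translocase, and Eci2, an enoyl-CoA isomerase, were not analysed here. The genes were measured by single-nucleus RNA sequencing of flash-frozen colon from wildtype male Wistar rats, in nuclei that the study had annotated as enterocytes, with nuclei annotated as T cells as the background. Sham rats drank plain water. Placebo and PL8177 rats drank water with 5% dextran sulfate sodium (DSS), which damages the epithelial lining of the colon, over 3 days. Capsules were then given to them by oral gavage 2 times a day, 6 h apart, for 4 days. The capsules held no drug (placebo) or PL8177, an agonist of the melanocortin 1 receptor, at 50 µg per animal. Nuclei came from 9 libraries, 3 per treatment, each read from the tag in the nucleus names and taken as 1 rat: GR12, GR13 and GR15 (sham), GR22, GR23 and GR24 (placebo) and GR41, GR43 and GR44 (PL8177). Values in 3 rats are given in these orders.

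Colonocytes obtain much of their energy from butyrate, a short-chain fatty acid made by gut bacteria. Butyrate enters through the monocarboxylate transporter Slc16a1 and the sodium-coupled transporter Slc5a8, is activated to butyryl-CoA and is split by mitochondrial beta oxidation into acetyl-CoA, part of which can leave as ketone bodies. Longer fatty acids must first be activated by acyl-CoA synthetases and carried into mitochondria by the carnitine shuttle (Cpt1a, Slc25a20, Cpt2). The nuclear receptors Ppara, Pparg and Esrra, with the coactivator Ppargc1a, are known regulators of these genes, and Pdk4 restrains the entry of pyruvate into mitochondria. Epithelial damage in colitis is known to be accompanied by changes in butyrate metabolism.

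The promoters of 4 members on which the results below turn, or which carry the binding motif of a member, are shown first, as the 250 bases before each annotated start in the RefSeq annotation of build GRCr8. Slc16a1 (chr2:194812410-194812659, plus strand) is the member with the smallest p-value between sham and placebo. Slc5a8 (chr7:25160030-25160279, plus strand) is the other butyrate transporter. Hadha (chr6:31907551-31907800, plus strand) shares its promoter with its partner Hadhb, and Acadvl (chr10:55236706-55236955, minus strand), the very-long-chain acyl-CoA dehydrogenase, holds a near match to the direct repeat bound by PPAR with RXR. Capitals mark matches to the motifs searched, and bases without a match are in lower case.
Slc16a1: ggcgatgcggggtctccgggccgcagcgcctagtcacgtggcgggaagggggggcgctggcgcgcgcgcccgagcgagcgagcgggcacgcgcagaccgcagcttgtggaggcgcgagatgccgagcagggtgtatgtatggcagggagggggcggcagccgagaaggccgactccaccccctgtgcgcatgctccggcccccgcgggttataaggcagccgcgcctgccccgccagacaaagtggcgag
Slc5a8: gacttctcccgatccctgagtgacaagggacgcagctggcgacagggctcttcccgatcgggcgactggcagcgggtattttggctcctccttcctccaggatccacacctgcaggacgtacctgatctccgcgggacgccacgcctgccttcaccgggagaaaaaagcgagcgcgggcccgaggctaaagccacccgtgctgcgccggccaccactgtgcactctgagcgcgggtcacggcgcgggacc
Hadha: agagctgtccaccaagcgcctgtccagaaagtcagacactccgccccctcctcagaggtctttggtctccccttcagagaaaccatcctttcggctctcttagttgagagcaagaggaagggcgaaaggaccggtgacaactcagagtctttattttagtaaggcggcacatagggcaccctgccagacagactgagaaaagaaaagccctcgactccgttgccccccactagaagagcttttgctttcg
Acadvl: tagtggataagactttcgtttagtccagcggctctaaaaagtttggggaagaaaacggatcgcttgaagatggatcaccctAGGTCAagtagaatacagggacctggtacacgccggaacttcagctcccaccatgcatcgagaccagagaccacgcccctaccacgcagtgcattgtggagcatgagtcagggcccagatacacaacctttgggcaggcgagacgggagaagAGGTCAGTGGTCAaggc

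Hadha and Hadhb, which encode the alpha and beta subunits of the mitochondrial trifunctional protein, start 301 bases apart on opposite strands of chromosome 6, and their 300-base windows (250 bases before to 50 after the start) share 200 bases. Windows were found for 32 of the 34 listed genes, 33 windows in all because Pparg has a pair of them. The single nuclear receptor element AGGTCA, searched on both strands, occurred in 7 of these 33 windows (Acadvl, Acsm3, Echs1, Eci1, Eci2, Fabp1 and Hadhb), and in 16.2% of all 33469 rat windows of this length. The direct repeat of 2 such elements with 1 base between them, with at most 1 mismatch, was present in Acadvl, starting 17 bases before the start, and in Fabp1, starting 77 bases before it, against 0.439% of all windows. It overlaps an AGGTCA match in both genes, and no member window held the exact repeat, which occurred in 0.0538% of all windows. The ERR motif TCAAGGTCA and the HNF4 motif CAAAGTCCA were in no member window and in 0.433% and 0.391% of all windows. The median GC content was 60.0% in member windows and 51.7% in all windows. These matches describe letters only, and the Slc16a1, Slc5a8 and Hadha windows held none of the motifs.

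Nuclei numbered 8782 for enterocytes (304 to 1531 per rat) and 1018 for T cells (19 to 685 per rat). Summed unique molecular identifier (UMI) counts per rat were 319125 to 4123319 in enterocytes and, over the 15108 genes in all 6 tables, 8070 to 779009 in T cells. Enterocyte nuclei carried their markers at 132 to 302 UMIs per 10000 UMIs and T cell markers at 0.156 to 0.846. These T cell markers were higher in placebo rats (0.392, 0.846 and 0.644) than in PL8177 rats (0.224, 0.361 and 0.156). Sham rats (0.525, 0.267 and 0.303) overlapped both groups, and the part of T cell markers in the treatment differences was not tested. The T cell nuclei of placebo rat GR23 went against their label, with T cell markers at 2.13 UMIs per 10000, against 24.8 to 58.4 in the other 8 rats, and enterocyte markers at 192, against 15.5 to 78.2. The calls against T cells are therefore also given without GR23. The T cell nuclei of all 3 PL8177 rats also held more enterocyte than T cell markers. Their levels were 49.1 against 32.4 in GR41, 57.6 against 24.8 in GR43 and 78.2 against 37.6 in GR44. T cell nuclei of sham rats ranged from 15.5 to 66.9 for enterocyte and from 29.7 to 58.4 for T cell markers. The highest sham enterocyte level thus lay above the highest sham T cell level. An excess of enterocyte markers was therefore not particular to the PL8177 rats and GR23. Of the nuclei of GR23, 685 were labelled T cells and 304 enterocytes. Its enterocyte nuclei held the lowest enterocyte markers (132) and the highest T cell (0.846) and crypt (2.91) markers of all rats. The effect of this on the placebo values was not tested. Of 9790 barcodes, 10 occurred in more than 1 rat and none in both cell types of a rat. Levels below are UMIs per 10000 UMIs of a rat's nuclei, with introns counted, so they are compared between rats for 1 gene and not between genes.

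Between sham and placebo rats, which differ by DSS and the capsules, no member passed the edgeR test (an adjusted p under 0.05 with a log2 fold change beyond 0.5 either way): 0 of 28 tested members, beside 0.0% of the 9424 genes tested. Fabp1 and Fabp2, fatty acid binding proteins (60 and 69 UMIs over all enterocytes), Echs1, an enoyl-CoA hydratase (6 UMIs), and Pdk4 (79 UMIs) were too low to be tested. At an edgeR unadjusted p below 0.05, 3 members were higher in sham (Slc16a1, Hadha and Hadhb) and 0 lower, beside 12.4% of all genes in either direction, 6.54% higher and 5.9% lower. The member median was a log2 fold change of 0.07, and that of all genes was −0.02. DESeq2 called 1 member, Slc16a1, and 1.74% of the 6132 genes to which it gave an adjusted p.

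Slc16a1 was the member with the smallest p-value between sham and placebo, and the highest in sham relative to placebo. Its level was 9.03, 6.84 and 8.44 in sham rats, 4.64, 3.38 and 5.11 in placebo rats and 5.84, 7.61 and 4.77 in PL8177 rats. All 3 sham rats lay above all 3 placebo rats, as in 5.23% of all genes with at least 50 UMIs, and the PL8177 rats overlapped both groups. The log2 fold change of sham over placebo was 1.02 (SE 0.24, 2.03-fold, n = 3 rats each), with an adjusted p of 0.183 by edgeR and 0.00781 by DESeq2. PL8177 rats differed from placebo by 0.62 (SE 0.24, edgeR adjusted p = 0.469) and from sham by −0.40 (SE 0.24, edgeR adjusted p = 0.780). Among surface-marker nuclei alone, defined below, the sham difference was 0.95 (edgeR adjusted p = 0.230).

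The share of enterocyte nuclei with a Slc16a1 UMI followed the same order after each nucleus was thinned to 300 UMIs and shallower nuclei were left out. It was 21.5%, 17.1% and 20.1% in sham rats (exact 95% intervals 18.9 to 24.3, 14.4 to 20.2 and 17.0 to 23.5), 11.7%, 6.30% and 11.1% in placebo rats (10.1 to 13.6, 3.71 to 9.89 and 9.45 to 13), and 13.5%, 17.6% and 11.5% in PL8177 rats (11.4 to 15.8, 15.7 to 19.7 and 9.30 to 14.0). The sham intervals lay above those of all 3 placebo rats, but they cover counting error within a rat and not the spread between rats. The shares also draw on the same libraries as the levels above. T cell nuclei thinned the same way gave 0.0% to 2.63% in 7 rats, 8.33% in GR22 (2 of 24 nuclei, exact interval 1.03 to 27.0) and 6.91% in GR23, whose T cell nuclei carried enterocyte markers. The shares of 0.0% rested on 14 to 30 nuclei per rat, with upper limits of 11.6% to 23.2% that reach the enterocyte shares. Unthinned shares ran from 25.9% to 69.8% in sham, 20.4% to 48.6% in placebo and 29.4% to 58.6% in PL8177 enterocytes, where median depth ranged from 437 to 2331 UMIs per nucleus.

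**Figure D1:**
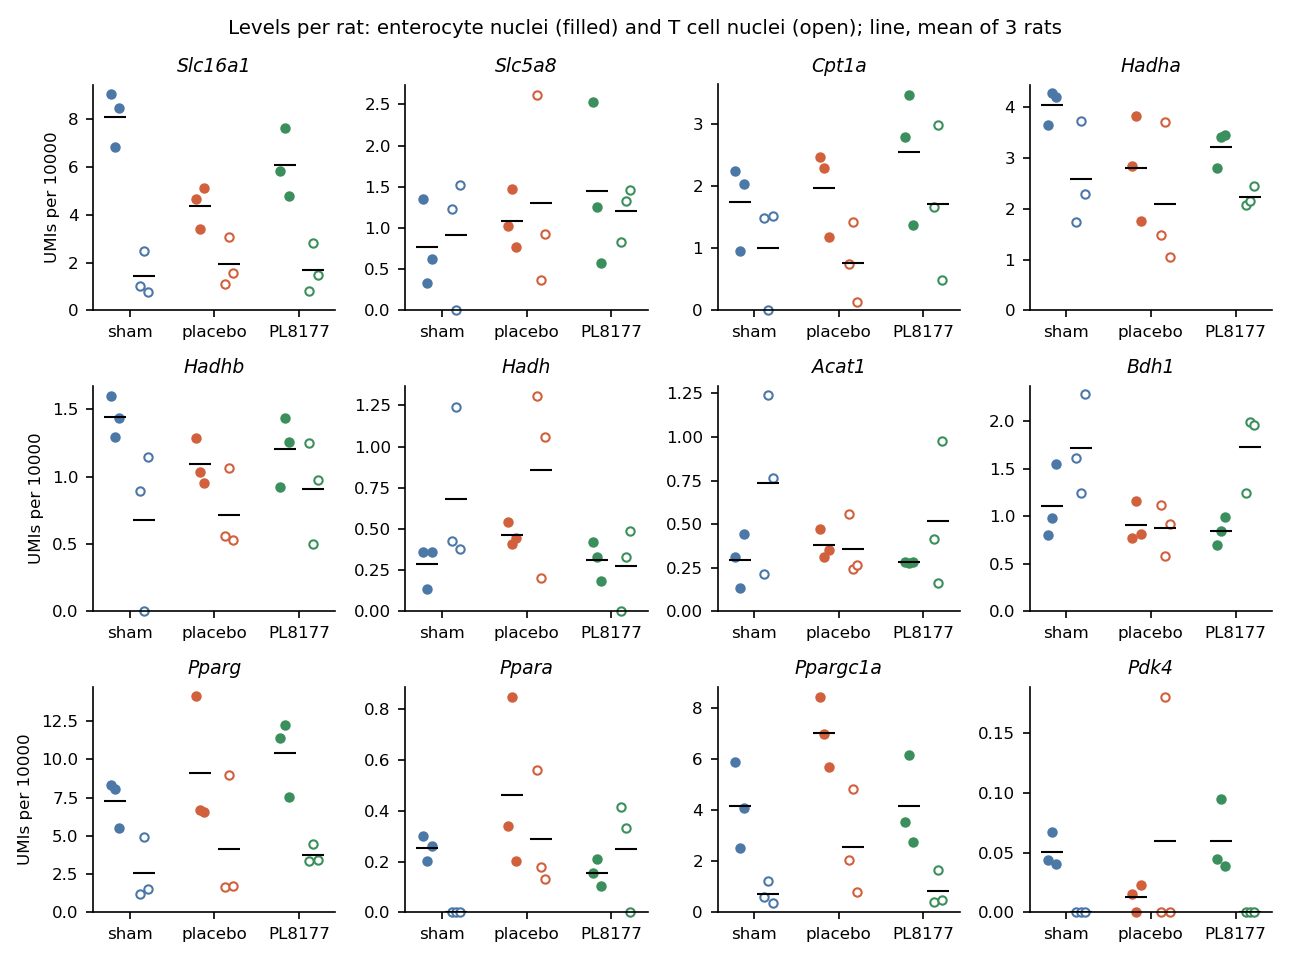
Levels of 12 members in each rat, in UMIs per 10000 UMIs (y axis of each panel, starting at 0), by treatment (x axis), in enterocyte nuclei (filled points) and T cell nuclei (open points), with a line at the mean of 3 rats. The 3 sham points for Slc16a1 in enterocytes sit between 6.84 and 9.03, all above the placebo points at 3.38 to 5.11, and for most other members the treatments overlap.

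The other transporters overlapped between treatments. Slc5a8 measured 1.35, 0.334 and 0.626 in sham rats, 1.02, 1.47 and 0.769 in placebo rats and 2.52, 1.26 and 0.572 in PL8177 rats. Its spread within a treatment was as wide as that between treatments, and its log2 fold changes against placebo were −0.24 (SE 0.50) in sham and 0.62 (SE 0.49) in PL8177 rats. Cpt1a, the rate-controlling enzyme of the carnitine shuttle, measured 2.24, 0.958 and 2.04 in sham rats, 2.47, 2.29 and 1.18 in placebo rats and 2.78, 3.46 and 1.38 in PL8177 rats. The treatments again overlapped, with log2 fold changes against placebo of −0.02 (SE 0.37) in sham and 0.54 (SE 0.36) in PL8177 rats. The remaining tested transport members, the acyl-CoA synthetases Acsl1, Acsl5 and Acsm3 and the shuttle genes Slc25a20 and Cpt2, overlapped too, and the fitted log2 fold changes of the 8 tested transport members ranged from −1.17 to 1.02 for sham rats and, for PL8177 rats, from −0.42 to 0.64 relative to placebo. Fabp1 and Fabp2 were nearly absent, and 45 of the UMIs of each came from placebo rat GR22. Summed over the 10 transport genes, levels were 14.8, 10.2 and 13 in sham rats, 10.1, 9.84 and 8.88 in placebo rats and 13.8, 14.4 and 8.51 in PL8177 rats, a sum in which Slc16a1 is included.

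Within beta oxidation, the smallest p-values between sham and placebo were those of both subunits of the trifunctional protein, which carries out the last 3 steps of the spiral for long-chain substrates. Hadha measured 3.65, 4.28 and 4.2 in sham rats, 2.83, 3.82 and 1.76 in placebo rats and 2.80, 3.4 and 3.44 in PL8177 rats. The sham and placebo rats overlapped through placebo rat GR23, while all 3 PL8177 rats lay below all 3 sham rats, as in 5.69% of all genes with at least 50 UMIs. No member lay wholly above sham in PL8177 rats, as 6.12% of those genes did. Hadhb measured 1.60, 1.29 and 1.43 in sham rats, 1.29, 1.03 and 0.95 in placebo rats and 0.923, 1.44 and 1.26 in PL8177 rats. All 3 sham rats lay above the placebo rats, again as in 5.23% of genes, though the nearest pair both stood at 1.29. The log2 fold change of sham over placebo was 0.72 (SE 0.27, edgeR adjusted p = 0.325) for Hadha and 0.55 (SE 0.24, edgeR adjusted p = 0.388) for Hadhb, and that of PL8177 over placebo was 0.40 (SE 0.27) and 0.30 (SE 0.24), so neither gene passed the test.

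Hadh, the hydroxyacyl-CoA dehydrogenase for shorter chains, lay the other way. It measured 0.361, 0.134 and 0.363 in sham rats, 0.544, 0.407 and 0.447 in placebo rats and 0.420, 0.332 and 0.182 in PL8177 rats. All 3 sham rats lay below the placebo rats, as in 14.4% of all genes with at least 50 UMIs, and the log2 fold change was −0.54 (SE 0.36, edgeR adjusted p = 0.536). For PL8177 against placebo it was −0.43 (SE 0.34), with the rats overlapping. Acadm, the medium-chain acyl-CoA dehydrogenase, measured 0.716, 0.245 and 0.363 in sham rats, 1.38, 0.501 and 0.503 in placebo rats and 0.643, 0.822 and 0.662 in PL8177 rats. The treatments overlapped, with placebo rat GR22 highest, and the log2 fold changes against placebo were −0.68 (SE 0.42) in sham and −0.06 (SE 0.41) in PL8177 rats. Without GR22 they were 0.04 and 0.66.

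Acads, the short-chain dehydrogenase that oxidizes butyryl-CoA, was the 1 member with an edgeR unadjusted p below 0.05 between PL8177 and sham, and was picked out after its values were seen. It measured 1.04, 2.29 and 2.71 in sham rats, 1.11, 2.0 and 1.22 in placebo rats and 0.626, 0.866 and 1.53 in PL8177 rats. The groups overlapped, and the log2 fold change of PL8177 over sham was −0.98 (SE 0.42, edgeR adjusted p = 0.747). The remaining beta oxidation members overlapped in all 3 comparisons wherever they reached 50 UMIs. Summed over the 15 genes found, beta oxidation levels were 17.8, 14.7 and 18.1 in sham rats, 19.6, 16.7 and 13.8 in placebo rats and 13.1, 18.5 and 17.9 in PL8177 rats, and the treatments overlapped.

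Both ketogenesis members were low and did not pass the test. Acat1, the mitochondrial acetoacetyl-CoA thiolase, measured 0.314, 0.134 and 0.444 in sham rats, 0.473, 0.313 and 0.351 in placebo rats and 0.285, 0.279 and 0.286 in PL8177 rats. All 3 PL8177 rats lay below the placebo rats, as in 14.0% of all genes with at least 50 UMIs, with a log2 fold change of −0.31 (SE 0.33, edgeR adjusted p = 0.824), and sham differed from placebo by −0.25 (SE 0.34). Bdh1, which interconverts acetoacetate and beta-hydroxybutyrate, measured 0.801, 0.980 and 1.55 in sham rats, 0.772, 1.16 and 0.808 in placebo rats and 0.694, 0.846 and 0.987 in PL8177 rats. The treatments overlapped, with log2 fold changes against placebo of 0.45 (SE 0.29) in sham and 0.09 (SE 0.29) in PL8177 rats.

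The regulators showed no shared direction. Pparg measured 8.32, 8.04 and 5.51 in sham rats, 14.1, 6.71 and 6.56 in placebo rats and 11.4, 12.2 and 7.56 in PL8177 rats, so that the treatments overlapped and placebo rat GR22 was highest. Its log2 fold changes against placebo were −0.17 (SE 0.33) in sham and 0.34 (SE 0.33) in PL8177 rats. Ppargc1a measured 5.91, 2.54 and 4.08 in sham rats, 8.45, 6.99 and 5.70 in placebo rats and 3.56, 6.16 and 2.75 in PL8177 rats. Its mean was highest in placebo, with 1 rat of each other group inside the placebo range, and the log2 fold changes against placebo were −0.61 (SE 0.32, edgeR adjusted p = 0.448) in sham and −0.60 (SE 0.32, edgeR adjusted p = 0.612) in PL8177 rats.

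Ppara measured 0.302, 0.201 and 0.262 in sham rats, 0.342, 0.846 and 0.204 in placebo rats and 0.157, 0.209 and 0.104 in PL8177 rats. Placebo rat GR23 alone was high, and the log2 fold change of PL8177 over placebo was −1.16 (SE 0.44, edgeR adjusted p = 0.469) with that rat and −0.65 without it, while sham over placebo was −0.49 (SE 0.45) with it and 0.04 without it. Pdk4 measured 0.0440, 0.0668 and 0.0404 in sham rats, 0.0152, 0.0 and 0.0226 in placebo rats and 0.0447, 0.0946 and 0.0390 in PL8177 rats. Both the sham and the PL8177 rats lay above the placebo rats, as in 5.23% and 4.62% of all genes with at least 50 UMIs, but these levels rest on 14, 3 and 2 UMIs in sham rats, 6, 0 and 4 in placebo rats and 8, 39 and 3 in PL8177 rats, with no test. Esrra, an orphan receptor active in mitochondrial gene programs, overlapped between treatments at 1.56 to 3.91.

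Between PL8177 and placebo rats, which share the DSS and the capsules, edgeR called 0 of 28 members, beside 0.0% of all 9424 genes, and DESeq2 called 0 members, beside 0.815% of genes. At an edgeR unadjusted p below 0.05, Slc16a1 was higher and Ppara lower, 2 of 28, beside 9.24% of all genes in either direction (5.5% higher and 3.75% lower), and the member median was 0.08 against −0.01 for all genes. Between PL8177 and sham rats edgeR again called 0 of 28 members, beside 0.0%, and DESeq2 0, beside 0.0425%. The member with an unadjusted p below 0.05 was Acads, 1 of 28, beside 6.59% of all genes (3.09% higher and 3.5% lower), and the medians were −0.03 for members and 0.03 for all genes. The comparisons of sham and of PL8177 with placebo share the same 3 placebo rats. With 3 rats against 3, an exact two-sided permutation test could not go below p = 0.1.

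**Figure D2:**
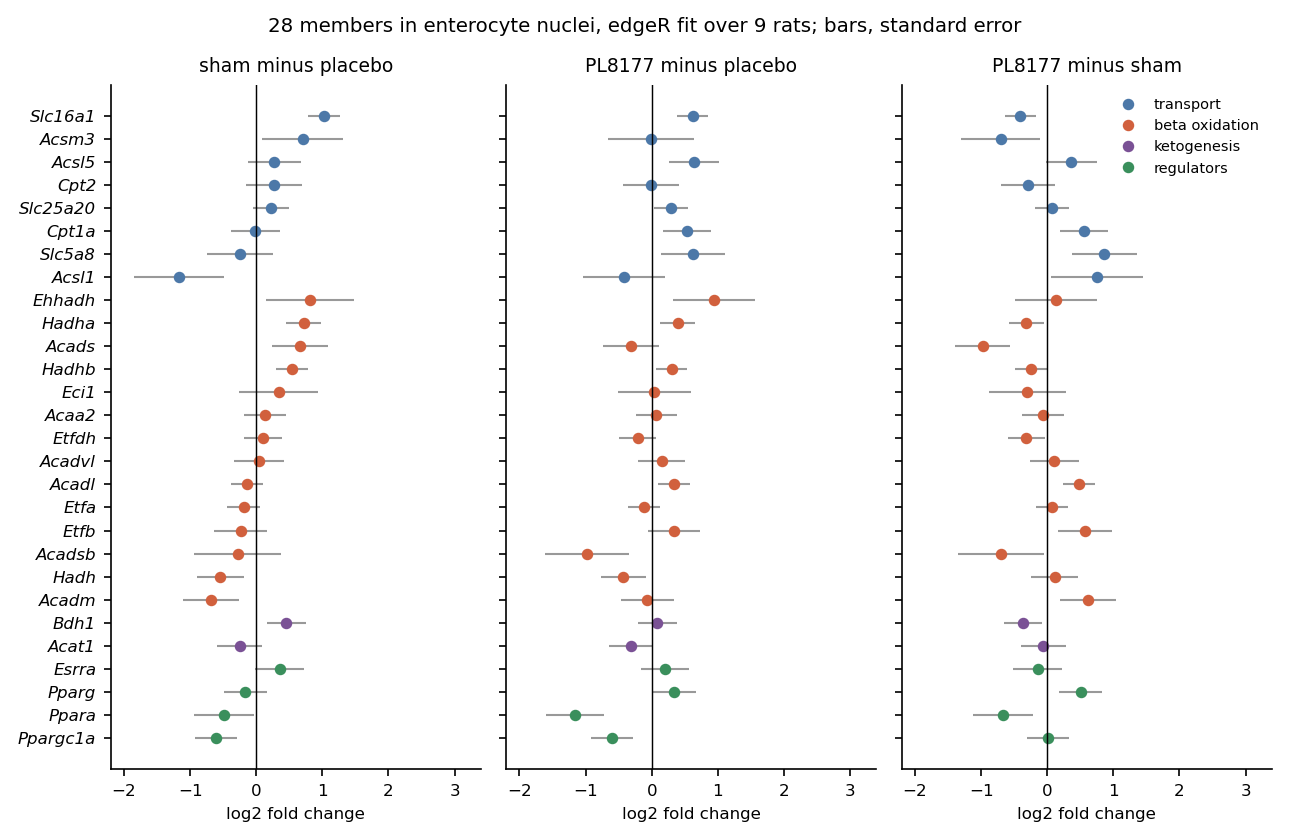
Log2 fold changes (x axis) of the 28 tested members (y axis), ordered by role, in enterocyte nuclei for sham minus placebo, PL8177 minus placebo and PL8177 minus sham, with bars for 1 standard error from the edgeR fit over 9 rats. Values run from −1.17 to 1.02 in the first panel, and no member passed the test in any panel.

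Enterocytes were compared with T cells to see which members stand above the level in another cell type of the same rats. Of 19 members tested, 11 were called, all 11 higher in enterocytes, beside 34.1% of the 5194 genes tested in either direction, 20.7% higher and 13.3% lower (edgeR with the rat as a block). The member median was a log2 fold change of 0.83, and that of all genes was 0.08. In transport, Slc16a1 ran from 3.38 to 9.03 (median 5.84) in enterocytes of the 9 rats and from 0.762 to 3.08 (median 1.47) in T cells. It was higher in enterocytes in 9 of 9 rats, with a log2 fold change of 2.13 (SE 0.33, edgeR adjusted p = 3.83e-05). Cpt1a was also higher in 9 of 9 rats, by 1.10 (SE 0.29, edgeR adjusted p = 0.00531). T cell sums of Cpt1a held 35, 0 and 4 UMIs in sham rats, 4, 111 and 1 in placebo rats and 4, 18 and 1 in PL8177 rats. Here and below, counts of rats that rest on T cell sums this small say little about direction.

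Slc5a8 did not stand above the background. It ran from 0.334 to 2.52 (median 1.02) in enterocytes and from 0.0 to 2.61 (median 1.23) in T cells, higher in enterocytes in 4 of 9 rats, with a log2 fold change of 0.23 (SE 0.34, edgeR adjusted p = 0.650). Nor did Acsl5 (−0.57, SE 0.32), Slc25a20 (0.36, SE 0.31) or both ketogenesis members, Bdh1 (−0.26, with enterocytes higher in 1 of 9 rats) and Acat1 (0.07). For these genes the test did not separate the enterocyte level from what T cell nuclei of the same rats carried.

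Among beta oxidation genes, 6 of 9 were called. Acaa2, the thiolase of the last step, was higher by 1.45 (SE 0.35), Acadl, the long-chain dehydrogenase, by 1.43 (SE 0.35) and Etfb, a subunit of the flavoprotein that takes up the electrons, by 1.43 (SE 0.36), with edgeR adjusted p of 0.00289, 0.00257 and 0.00382. Each was higher in 8 of 9 rats. T cell sums of sham rats GR13 and GR15 held 0 UMIs of Acadl and of Etfb. They held 0 and 1 UMIs of Acaa2, so both rats cannot show a direction for these genes. Hadha was higher by 0.87 in 9 of 9 rats, Hadhb by 0.83 in 7 of 9 and Etfa by 0.65 in 6 of 9 (edgeR adjusted p = 0.00700, 0.0391 and 0.0494). Leaving out GR12, GR15, GR22, GR24, GR43 or GR44 ended the calls of both Hadhb and Etfa, and leaving out GR41 that of Etfa. Acadm, Etfdh and Hadh were not called.

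All 3 regulators tested were called. Ppargc1a ran from 2.54 to 8.45 (median 5.70) in enterocytes and from 0.381 to 4.83 (median 0.791) in T cells, higher in 9 of 9 rats by a log2 fold change of 2.38 (SE 0.33, edgeR adjusted p = 1.08e-05). Pparg ran from 5.51 to 14.1 (median 8.04) and from 1.19 to 8.95 (median 3.33), higher in 8 of 9 rats by 1.89, and Esrra was higher in 8 of 9 rats by 0.92. The highest T cell levels of Slc16a1, Pparg and Ppargc1a, 3.08, 8.95 and 4.83, were all in placebo rat GR23, whose T cell nuclei carried enterocyte markers. Without GR23 the differences were 2.59, 2.37 and 2.90, and 13 members were called, with Acadm higher and Acsl5 lower in enterocytes beside the 11. Calls over all genes rose too without GR23, from 1769 of 5194 to 2780 of 5129, of which 1592 were higher in enterocytes. Cpt1a was then higher by 1.17, Acaa2 by 2.04, Acadl by 1.83, Etfb by 1.77, Hadhb by 1.15, Hadha by 1.14, Esrra by 1.11 and Etfa by 0.87, and Slc5a8 differed by 0.03 (edgeR adjusted p = 0.942).

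**Figure D3:**
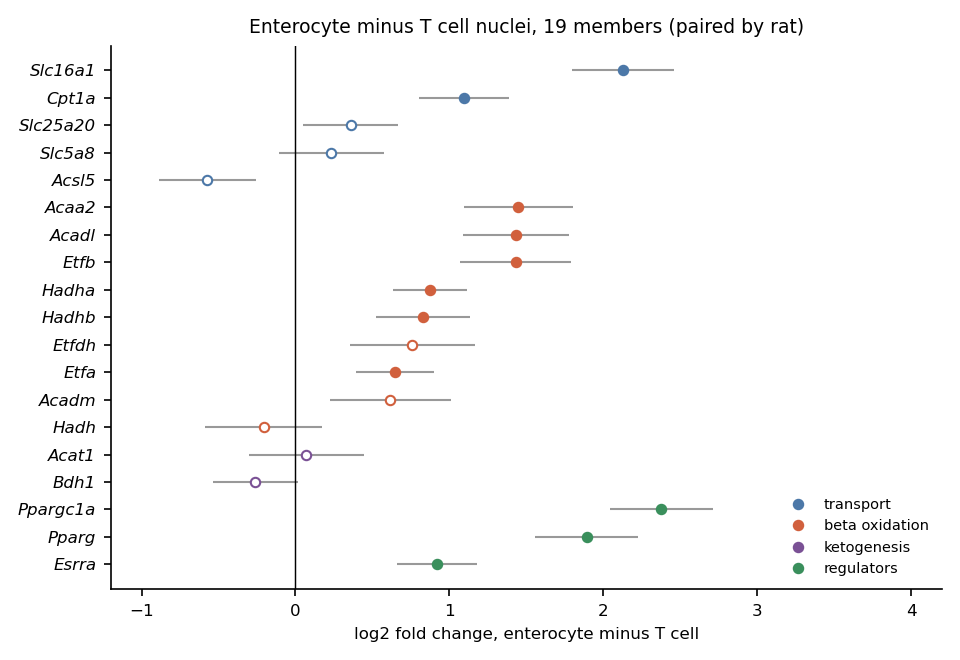
Log2 fold changes (x axis) of 19 members (y axis) between enterocyte and T cell nuclei of the same 9 rats, with bars for 1 standard error. Filled points mark the 11 called members, which all lie right of 0, and open points those not called, among them Slc5a8, Bdh1 and Acat1.

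Position along the crypt axis was read from marker genes. An enterocyte nucleus was called surface-marker when it held more UMIs of a surface list (such as Slc26a3, Krt20 and Aqp8) than of a crypt list (such as Lgr5 and Mki67), and crypt-marker in the reverse case, giving 7988 and 164 nuclei, with 630 tied. The crypt-marker class was small and shallow: 132 of its 164 nuclei lay within 1 UMI of the dividing line, its median depth was 544.5 UMIs against 1227, and sham rats GR13 and GR15 held 2 and 4 such nuclei. It carried enterocyte markers at 29.8 UMIs per 10000 against 207, T cell markers at 1.81 against 0.371 and goblet markers at 2.95 against 1.90, with a median of 0 UMIs per nucleus for the last 2 lists, and the part of these in the differences was not tested. It is a range of a score and not a cell type.

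Of 15 members tested between the classes, 8 were called, beside 36.6% of the 3013 genes tested, with 24.6% higher and 12.1% lower in surface-marker nuclei (edgeR with the rat as a block). The member median was a log2 fold change of 0.86, and that of all genes was 0.19. The filter on low counts was set by class, so a gene could enter through its surface-marker sums alone. The part of this in the calls was not tested. Higher in surface-marker nuclei were 6 members: Acadl by a log2 fold change of 2.11 (SE 0.39), Slc16a1 by 1.91 (SE 0.33), Pparg by 1.79 (SE 0.31), Hadhb by 1.66 (SE 0.52), Esrra by 1.00 (SE 0.37) and Hadha by 0.90 (SE 0.33). In the 7 rats with at least 5 crypt-marker nuclei, Acadl, Slc16a1, Pparg and Hadhb were higher in 7 of 7, and Esrra and Hadha in 5 of 7. Over all rats, crypt-marker nuclei held 15 UMIs of Acadl, 56 of Pparg, 7 of Hadhb, 20 of Esrra and 29 of Hadha. They held no UMI of Hadhb in GR23 and GR44 or of Acadl in GR12 and GR44. The same was true of Slc16a1 and Esrra in GR23 and of Hadha in GR44. Sums this small cannot show a direction in a single rat. Rats GR13 and GR15 are left out of these counts, since so few nuclei can hold no UMI of a gene at such levels. In GR13 Acadl lay the other way, at 16.05 in its 2 crypt-marker nuclei and 2.66 in surface-marker nuclei. Slc16a1 ran from 3.73 to 9.31 (median 6.06) in surface-marker nuclei and from 0.0 to 4.16 (median 1.46) in crypt-marker nuclei, where it rested on 30 UMIs in all.

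Slc5a8 went the opposite way from Slc16a1. It ran from 0.326 to 2.50 (median 0.970) in surface-marker nuclei and from 0.0 to 5.46 (median 3.28) in crypt-marker nuclei (61 UMIs), lower at the surface in the same 7 of 7 rats, by −1.67 (SE 0.29, edgeR adjusted p = 1.15e-07). No UMI of it was found in the crypt-marker nuclei of GR13 and GR15. Bdh1, with 28 UMIs in crypt-marker nuclei, was lower at the surface by −0.86 (SE 0.36, edgeR adjusted p = 0.0426). DESeq2 did not give this call (adjusted p = 0.0985), and the call was lost without GR22, GR23, GR24, GR41 or GR43. The call of Hadha was lost without GR12, GR43 or GR44 and that of Esrra without GR22 or GR24.

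The differences were measured again at equal depth. With every nucleus thinned to 300 UMIs before the classes were set, 3 members had enough counts to be tested. Pparg stayed higher in surface-marker nuclei by 2.18 (edgeR adjusted p = 0.000256), Slc16a1 differed by 0.37 (edgeR adjusted p = 0.530) and Hadha by −0.09. Slc5a8 could not be tested at that depth.

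**Figure D4:**
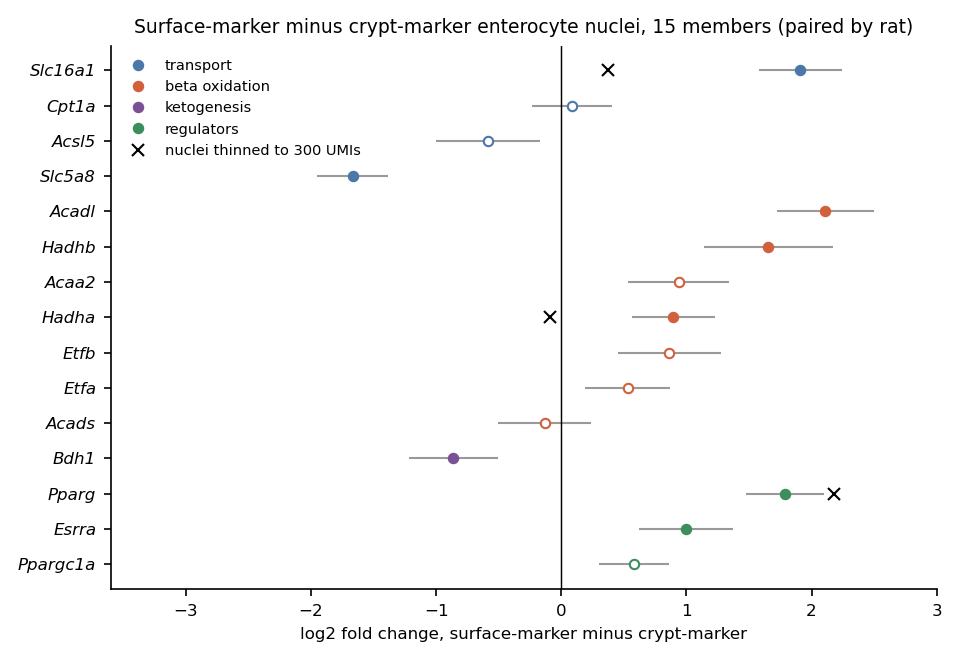
Log2 fold changes (x axis) of 15 members (y axis) between surface-marker and crypt-marker enterocyte nuclei of the same rats, with bars for 1 standard error, filled points for called members and crosses for the 3 members that could be tested after thinning to 300 UMIs. Slc16a1 falls from 1.91 to 0.37 when thinned, while Pparg lies at 1.79 and 2.18.

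Other genes of the pathway that are not members, 57 listed and 53 found, gave a like picture between treatments. Of 46 tested, edgeR called 0 in each comparison, beside 0.0% of all genes. At an edgeR unadjusted p below 0.05, 5 were higher and 4 lower in sham than in placebo, beside 6.54% and 5.9% of all genes. Pdk1, a sister kinase of Pdk4, was lower in sham than in placebo by −1.83 (SE 0.41, adjusted p = 0.166 by edgeR and 0.0277 by DESeq2) and in PL8177 than in placebo by −1.18 (SE 0.37, edgeR adjusted p = 0.371), with all rats below the placebo rats in both, as in 14.4% and 14.0% of all genes with at least 50 UMIs. Other genes with small p-values were Slc27a4 (1.24) and Nrf1 (0.72) in sham and Rxra (0.53) and Nrf1 (0.57) in PL8177 relative to placebo, and Rxra (0.64) and Acacb (−1.51) between PL8177 and sham, none of them called. Of 15 glycolysis genes tested, 0 were called. Their median was −0.37 in sham and 0.16 in PL8177 relative to placebo, and 0.38 in PL8177 relative to sham. At an edgeR unadjusted p below 0.05, 0 were higher and 4 lower in sham than in placebo, beside 6.54% and 5.9% of all genes. In PL8177, 1 was higher and 0 lower than in placebo, beside 5.5% and 3.75%. Relative to sham, 3 were higher and 0 lower in PL8177, beside 3.09% and 3.5%. The glycolysis genes with the smallest p-values were Ldha (−0.89), Gapdh (−0.84) and Pfkl (−0.71) in sham relative to placebo. They were Hk1 (0.76), Pfkp (0.51) and Pgam1 (−0.48) in PL8177 relative to placebo, and Ldha (1.05), Gapdh (0.99) and Pgk1 (1.11) between PL8177 and sham. In enterocytes against T cells, 12 of 28 other pathway genes and 8 of 13 glycolysis genes were called, all of them higher in enterocytes. They included Acad11 (1.99) and Hnf4a (1.47), and Aldoa (2.08), Hk2 (2.03) and Ldha (1.5). Of all 5194 genes tested, 20.7% were called higher and 13.3% lower. Without GR23, 13 higher and 2 lower of 26 other pathway genes and 10 higher of 13 glycolysis genes were called. Calls over all genes were then 2780 of 5129, 1592 of them higher. Between surface-marker and crypt-marker nuclei 7 of 18 other pathway genes were called, 5 higher and 2 lower at the surface, among them Acad11 (2.46) and Slc22a5 (1.63). Of 9 glycolysis genes 6 were called, all higher, with Hk2 (2.42), Pfkp (2.33) and Slc2a1 (3.27) first. Of all 3013 genes tested, 36.6% were called, 24.6% higher and 12.1% lower at the surface.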

How the data were processed

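Flash-frozen rat colon was profiled with 10x 3' v3.1 single-nucleus libraries. The authors aligned reads to Rnor 6.0 with Cell Ranger 6.0.1, introns included, removed ambient RNA with CellBender, required 3 cells per gene and 200 genes per nucleus, dropped nuclei at or over 5% mitochondrial reads, and annotated cell types in Seurat 4.0.3. The deposited values are whole UMI counts per gene and nucleus, in 6 tables (3 treatments by 2 cell types); whether other steps altered them is not given in the sources used here. The placebo T cell table holds fewer genes than the others, so 15108 genes were shared by all 6.

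Counts were summed per library tag (9, taken as rats; the labels do not list them, so p-values measure the spread between these libraries). edgeR 4.0.16 (TMM, filterByExpr, quasi-likelihood test, Benjamini-Hochberg over all genes tested, R 4.3.3) was the main test, with 1 fit over 3 treatments and, between cell types or nucleus classes, the rat as a block since both sums come from 1 library. A call needed an adjusted p under 0.05 with a log2 fold change beyond 0.5 either way, the fold limit the study used for enterocytes; the study tested nuclei with MAST, but nuclei are not replicates. DESeq2 1.42.0 and other settings were alternatives. Rats that do not overlap were counted for genes with at least 50 UMIs. Levels are UMIs per 10000, intervals of shares are exact binomial (95%) and cover counting error only. No doublet caller was run; 650 enterocyte nuclei with a T cell marker UMI or above the 99th percentile of UMIs of their rat were left out as an alternative. Fits were tested on simulated data. The members and gene lists were chosen with earlier results of these data known. Values in every rat were given for 12 members whatever they showed, for members with an unadjusted p below 0.05 against placebo and for those whose rats did not overlap with placebo; Acads was added after its values were seen. For other pathway and glycolysis genes the smallest p-values guided which were named, and some of these are not reported here. Promoter windows came from RefSeq (GRCr8), a build other than that of the counts, and were matched by symbol.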

Additional observations from a re-analysis of the deposited data

How the results depend on the processing

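No paired analysis was possible between treatments because their libraries share no replicate number. In the 3 treatment comparisons edgeR called 0 members under each alternative run, leaving out a rat included, which says nothing about stability since edgeR called 0 of all genes as first fitted, and DESeq2 called 1 (Slc16a1, sham against placebo). Slc16a1 lay between 0.85 and 1.18 in sham against placebo over all settings (adjusted p 0.00781 to 0.439). Between enterocytes and T cells, 11 members called became 17 with no filter on low counts, which tests 31 members, 9 without the replicate block and 9 to 13 when a rat was left out. Calls over all genes were 1769 of 5194 at first, 3881 of 14987 with no filter and 1612 of 5194 without the block. Leaving out a rat gave from 1160 of 5191 (GR12) to 2780 of 5129 (GR23). A further run kept only T cell nuclei with T cell markers at no fewer UMIs than enterocyte markers. It called 13 of 18 members, 12 of them higher, beside 2336 of 4386 genes. Between surface-marker and crypt-marker nuclei, 8 became 14 with no filter, 1 when thinned to 300 UMIs, which leaves 3 members tested, 11 with RLE scaling or with Slc26a3 off the surface list, 7 without the replicate block and 6 to 9 when a rat was left out. Here calls over all genes were 1104 of 3013 at first, 2742 of 16450 with no filter and 132 of 512 when thinned. With no filter, 2393 of the 2742 were higher in surface-marker nuclei, and the median log2 fold change over all genes was 0.948. They were 1281 of 3013 with RLE scaling, 1342 of 3064 with Slc26a3 off the list and 1070 of 3013 without the block. Leaving out a rat gave from 906 of 2898 (GR43) to 1272 of 3896 (GR23).

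Some log2 fold changes turned direction, and the cause was not tested. When a rat was left out, sham against placebo gave log2 fold changes of −0.95 to 0.054 for Slc5a8, −0.275 to 0.224 for Cpt1a, −1.271 to 0.041 for Acadm, −0.879 to 0.036 for Ppara and −0.371 to 0.303 for Pparg. PL8177 against placebo gave −0.013 to 0.981 for Slc5a8, −0.339 to 0.658 for Acadm and −0.061 to 0.22 for Bdh1, and when thinned 0.073 for Acadm and −0.325 for Bdh1. PL8177 against sham gave −0.12 to 0.33 for Hadh, −0.298 to 0.206 for Acat1 and −0.362 to 0.311 for Ppargc1a. In that comparison Hadh was −0.241 in nuclei with at least 500 genes and −0.013 in surface-marker nuclei. Ppargc1a, at 0.008 as first fitted, was −0.02 by DESeq2, −0.021 with RLE scaling, −0.071 in nuclei with at least 500 genes, −0.155 when thinned and −0.028 with only both treatments fitted. Hadha between the nucleus classes was −0.09 when thinned.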
